A study of Mus musculus with 18 samples.

Results

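The genes described here are 40 listed genes that mark epithelial or mesenchymal identity, out of 18033 genes read on the array, each read on whichever of its probe sets was brightest on average over the 18 arrays. They comprise 23 epithelial genes (keratins, cell adhesion, tight junction and desmosome genes and epithelial regulators), 15 mesenchymal genes (cytoskeleton and matrix, transcription factors, contractile proteins and stromal surface proteins) and 2 genes of neither class, Gpnmb and Gprc5a. RNA came from TKO, a mouse line labelled as having dysfunctional telomeres and grown in serum-containing medium. The 6 groups, with 3 Affymetrix arrays each, were uninfected cells and cells expressing p53ER, in which the p53 tumour suppressor is joined to an estrogen receptor and works only once 4-hydroxytamoxifen (4-OHT) is present. Both were collected before treatment (0 h) and 4 h after either vehicle or 4-OHT at 100 nM was given. The labels name no cells that were infected without the fusion, so infection and the fusion cannot be told apart, and they do not say whether p53ER cells were 1 clone. Nor do they tell if the replicates of a group were grown separately, so that p-values here measure only array-to-array spread, which may be technical.

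Epithelial cells are held together by cadherin junctions, tight junctions and desmosomes, and their cytoskeleton is built of keratins. Mesenchymal cells such as fibroblasts carry vimentin in place of most keratins, secrete matrix and often express smooth muscle actin in culture. In the epithelial to mesenchymal transition the SNAIL, ZEB and TWIST transcription factors shut down epithelial genes, and the first 2 families do so by binding E-boxes of the form CAGGTG in their promoters.

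The letters CAGGTG, or CACCTG when read on the opposite strand, were searched for in the 250 bases before each annotated start in RefSeq sequence (GRCm38.p6), where 24 of the 40 genes had an entry. At least 1 copy was present in 9 of 15 epithelial genes (60%) and in 1 of 8 mesenchymal genes (12.5%), against 19.4% of 27025 genes with a promoter entry. Gpnmb had none. Of wider lists, 15 of 24 further epithelial genes (62.5%) and 1 of 31 further mesenchymal genes (3.23%) held a copy. A match describes these letters and shows neither binding nor regulation in this line. The promoters of 4 epithelial genes whose arrays are described below, and of Snai1, the mesenchymal gene with a copy, are printed 5′ to 3′ on the strand of the gene with the E-box in capitals. Krt7 (keratin 7) lies on the plus strand at chr15:101412153-101412402, and its copy begins at -44 relative to the start site. Krt8 (keratin 8) lies on the minus strand at chr15:102004343-102004592, with a copy at -111. Epcam (epithelial cell adhesion molecule) lies on the plus strand at chr17:87635729-87635978, with copies at -187 and -19. Ocln (the tight junction protein occludin) lies on the minus strand at chr13:100552499-100552748, with copies at -213 and -68, and its other annotated start had none. Snai1, which encodes SNAIL itself, lies on the plus strand at chr2:167537945-167538194, with a copy at -126.
Krt7: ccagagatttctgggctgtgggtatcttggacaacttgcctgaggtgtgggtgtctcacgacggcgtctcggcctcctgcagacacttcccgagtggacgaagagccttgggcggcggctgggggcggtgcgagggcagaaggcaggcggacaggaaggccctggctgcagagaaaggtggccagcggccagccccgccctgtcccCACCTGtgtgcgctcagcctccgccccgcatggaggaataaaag
Krt8: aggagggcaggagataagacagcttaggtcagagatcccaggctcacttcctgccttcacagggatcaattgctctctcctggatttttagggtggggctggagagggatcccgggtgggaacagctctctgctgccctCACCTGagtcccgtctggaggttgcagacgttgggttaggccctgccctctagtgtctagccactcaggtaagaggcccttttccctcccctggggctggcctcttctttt
Epcam: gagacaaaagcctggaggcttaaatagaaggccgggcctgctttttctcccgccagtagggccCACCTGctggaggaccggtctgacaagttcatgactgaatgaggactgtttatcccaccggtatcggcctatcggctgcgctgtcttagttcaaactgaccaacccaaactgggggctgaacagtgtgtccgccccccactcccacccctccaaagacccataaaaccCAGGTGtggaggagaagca
Ocln: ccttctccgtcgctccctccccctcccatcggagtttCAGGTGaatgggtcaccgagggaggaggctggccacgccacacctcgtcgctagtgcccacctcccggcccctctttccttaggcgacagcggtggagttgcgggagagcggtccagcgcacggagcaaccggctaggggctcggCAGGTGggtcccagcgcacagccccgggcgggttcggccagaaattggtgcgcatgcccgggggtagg
Snai1: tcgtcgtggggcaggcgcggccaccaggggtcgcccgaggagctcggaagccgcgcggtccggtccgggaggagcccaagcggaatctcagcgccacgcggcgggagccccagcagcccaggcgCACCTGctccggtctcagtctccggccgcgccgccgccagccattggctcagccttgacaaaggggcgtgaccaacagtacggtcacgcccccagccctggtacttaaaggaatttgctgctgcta

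All mesenchymal genes but Zeb2 lay above background on every array, whereas most epithelial genes did not. Levels are given as log2(signal + offset) after each array was scaled to a common mean, and background as the highest of 27 bacterial control probe sets on the same array, which ran from 3.80 to 5.03 between arrays. Of the 15 mesenchymal genes, 14 lay above that control on 18 of 18 arrays and Zeb2 on 17. Of the 23 epithelial genes, 7 lay above it on 18 of 18 arrays, 14 on some and 2 on none, while 47.9% of all genes on the array lay above it on 18 of 18. Gpnmb and Gprc5a also lay above it on 18 of 18. A filter kept the upper 60% of genes by mean signal, 10820 in all, for testing. It kept 15 of 15 mesenchymal genes, 12 of 23 epithelial genes and both others, 29 of the 40. Krt5, at a mean of 4.78, was the last to pass and Krt18, at 4.70, fell just below the bound of 4.76.

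**Figure D1:**
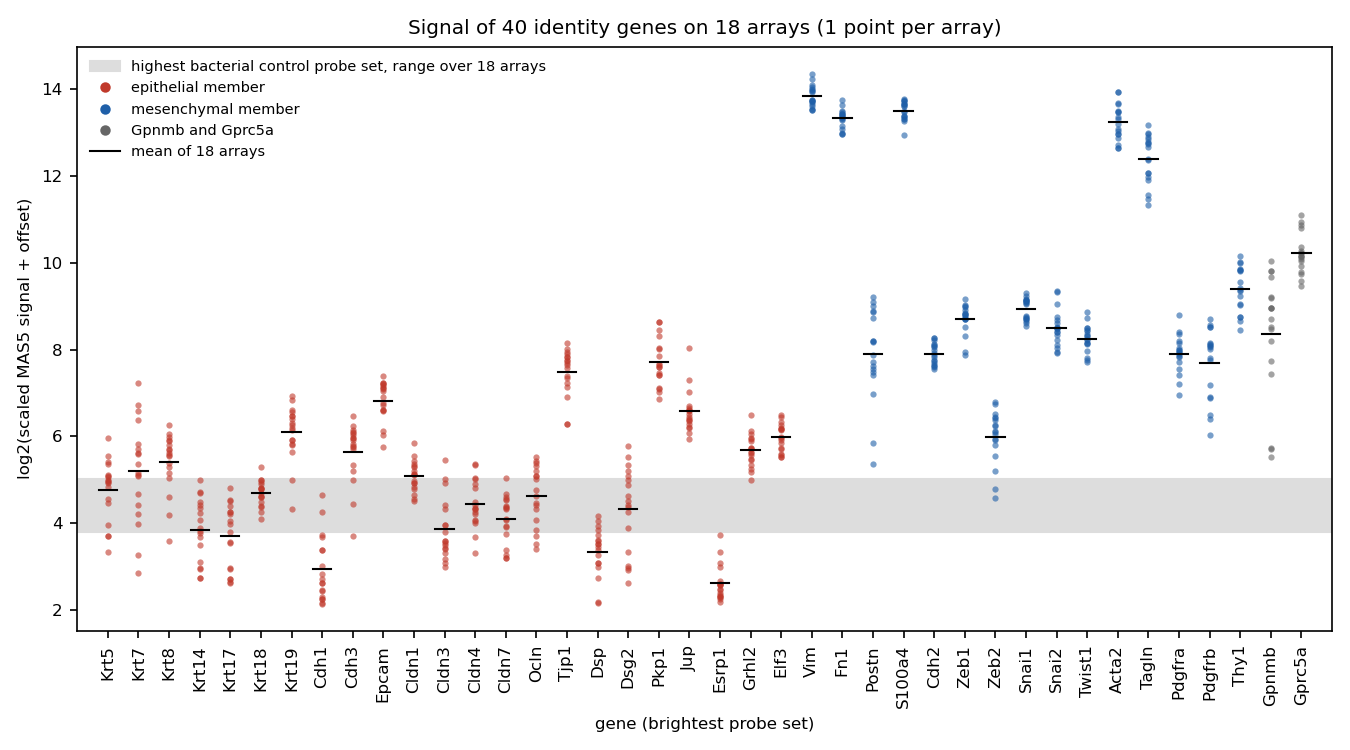
Log2 signal of the 40 genes (1 column per gene, 1 point per array, line at the mean of 18 arrays), with the range of the highest bacterial control probe set in grey (3.80 to 5.03). Mesenchymal genes (blue) lie above the grey band but for Zeb2, which reaches into it, whereas many epithelial genes (red) lie in or below it; levels of different genes come from different probe sets and are not set against each other.

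Cdh1, the E-cadherin of epithelial junctions, ran from 2.15 to 4.66 with a median of 2.69 and was above the controls on 0 of 18 arrays. Esrp1, an epithelial splicing regulator, ran from 2.20 to 3.74 with a median of 2.54 and was also above them on 0 arrays. The desmosome linker Dsp exceeded the controls on 2 arrays, Krt17 on 2, Cldn3 on 4, Cldn7 and Krt14 on 5 each, Cldn4 on 10, Ocln and the desmosomal cadherin Dsg2 on 11 each and Krt18 on 12. Cdh1, Esrp1, Dsp, Krt17, Cldn3, Cldn7 and Krt14 were thus at or below the controls on most arrays. Of genes that passed the filter, Krt5 was above the controls on 12 arrays, Krt7 on 14, the P-cadherin gene Cdh3 on 16, and Krt8 and Cldn1 on 17 each.

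The 7 epithelial genes above the controls on all 18 arrays were Krt19, Epcam, Tjp1, Pkp1, Jup, Grhl2 and Elf3. The junction scaffold Tjp1 (ZO-1) ran from 6.28 to 8.15 with a median of 7.66, and the plaque proteins Pkp1 (plakophilin 1) and Jup (plakoglobin) had medians of 7.62 and 6.48. Krt19, a simple epithelial keratin, ran from 4.32 to 6.93 with a median of 6.24, and Elf3, an epithelial transcription factor gene, from 5.53 to 6.50. Of the 7, only Epcam and Grhl2 had more than 1 probe set, and for both the probe sets disagreed. Krt19, Tjp1, Pkp1, Jup and Elf3 were read by 1 probe set each, without such a check. Epcam had a mean of 6.82 on the probe set used and of 2.59 on its other probe set, which was above the controls on 0 of 18 arrays. Grhl2, a transcription factor of epithelial differentiation, had a mean of 5.68 on the probe set used and 4.49, 3.38 and 2.82 on its 3 others, above the controls on 11, 1 and 0 arrays.

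The intermediate filament gene Vim ran from 13.50 to 14.35 with a median of 13.74. The fibronectin gene Fn1 ran from 12.95 to 13.75, S100a4 from 12.94 to 13.76, the smooth muscle actin gene Acta2 from 12.62 to 13.92 and its companion Tagln (transgelin, SM22) from 11.33 to 13.16. Probe sets disagreed here too. Acta2 had a mean of 13.23 on the probe set used and 5.02 and 4.24 on its others, above the controls on 16 and 8 of 18 arrays. Fn1 had a mean of 13.32 on the probe set used and 6.11 on its other, above the controls on 18 of 18 arrays. Vim stayed bright on its others, with means of 12.20 and 11.92. S100a4 and Tagln were read by 1 probe set each. The transcription factor genes Snai1 (8.54 to 9.30), Snai2 (7.92 to 9.34), Zeb1 (7.87 to 9.17) and Twist1 (7.71 to 8.87) were above the controls on every array, as was Cdh2, the N-cadherin gene (7.55 to 8.26). The growth factor receptor genes Pdgfra and Pdgfrb had medians of 7.95 and 8.03, and the surface glycoprotein gene Thy1 9.39. Wider lists gave the same contrast in counts: 38 of 43 further mesenchymal genes on the array, such as collagens and other matrix genes, and 17 of 18 genes of the TGF-beta pathway lay above the controls on 18 of 18 arrays, against 14 of 46 further epithelial genes. For markers of other cell types the counts were 4 of 10 for blood, 2 of 10 for endothelium, 1 of 8 for skeletal muscle, 2 of 9 for neural cells and 0 of 7 for melanocytes.

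Not all differences between arrays followed the groups. The 2% trimmed mean before scaling ran from 47.5 to 148 between arrays, replicate 3 of every group stood apart from replicates 1 and 2, and 3 arrays of different groups (uninfected 0 h replicate 2, p53ER vehicle replicate 1 and p53ER 0 h replicate 3) lay apart from the others. These differences are described below for the listed genes. Of the comparisons made, only those with replicate 3 moved any listed gene past the threshold in the main fits. Among alternative fits, Gprc5a passed in 1 comparison with the replicate number as a block. Replicate 2 against replicate 1 gave 1 gene in some alternatives.

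Activation of p53 by 4-OHT for 4 h did not move any of the 29 tested genes past the threshold. In p53ER cells with 4-OHT against vehicle 0 of 29 passed (limma, adjusted p under 0.05 over all genes tested, a rule met by 0.0185% of all genes), and 2, Cdh3 and Jup, had an unadjusted p under 0.05, which 3.22% of all genes had. The median log2 change was +0.05 over the 29 genes and -0.01 over all genes tested. This fit did not use the replicate number, and with the number as a block, described in the last section, none passed either. The intervals were wide for some genes: Vim differed by +0.04 (95% interval -0.43 to 0.50), Snai1 by +0.02 (-0.39 to 0.43), Epcam by -0.09 (-0.87 to 0.70) and Postn, the matrix gene periostin, by +0.72 (-1.10 to 2.54). Postn turned to -0.29 without p53ER vehicle replicate 1, 1 of the 3 arrays that lay apart. A missed threshold therefore does not show that these genes were unaffected.

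P-cadherin, the product of Cdh3, is a classical cadherin of basal epithelial cells. Its signal was 4.45, 5.0 and 3.70 in p53ER cells with 4-OHT and 5.76, 6.07 and 5.78 with vehicle. It was 5.20, 6.24 and 5.34 at 0 h, and in uninfected cells it ran from 5.72 to 6.46. The p53ER arrays with 4-OHT were thus the 3 lowest of all 18, a pattern found in 0.203% of genes tested, and they did not overlap with vehicle, as in 3.98% of genes tested for lower values. Of the 3 arrays with 4-OHT, 1 was above the controls of its own array, against 3 of 3 with vehicle, so the size of the fitted difference and its interval are limited by background. The log2 difference from vehicle was -1.49 (SE 0.32, 95% interval -2.17 to -0.81), with a limma adjusted p of 0.359, against -0.04 (SE 0.32) in uninfected cells. Between cell types this 4-OHT effect differed by -1.45 (SE 0.46), with a limma adjusted p of 1.00. Leaving out each array in turn kept the difference from vehicle between -1.79 and -1.15. The second Cdh3 probe set was above the controls on 1 of 18 arrays and gives no check.

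Jup encodes plakoglobin, which links cadherins to the cytoskeleton in desmosomes and adherens junctions. Its signal was 7.30, 7.03 and 8.05 in p53ER cells with 4-OHT against 6.71, 6.41 and 6.61 with vehicle and 5.94, 6.59 and 6.65 at 0 h, while uninfected cells ran from 6.09 to 6.62. These were the 3 highest of 18 arrays, as in 0.471% of genes tested, with no overlap with vehicle, as in 3.35% of genes tested for higher values. The log2 difference was +0.88 (SE 0.25, 95% interval 0.36 to 1.40), with a limma adjusted p of 0.990, against +0.07 (SE 0.25) in uninfected cells. Between cell types the effect differed by +0.81 (SE 0.35), with a limma adjusted p of 1.00. It stayed between +0.59 and +1.10 for the difference from vehicle when each array was left out in turn.

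**Figure D2:**
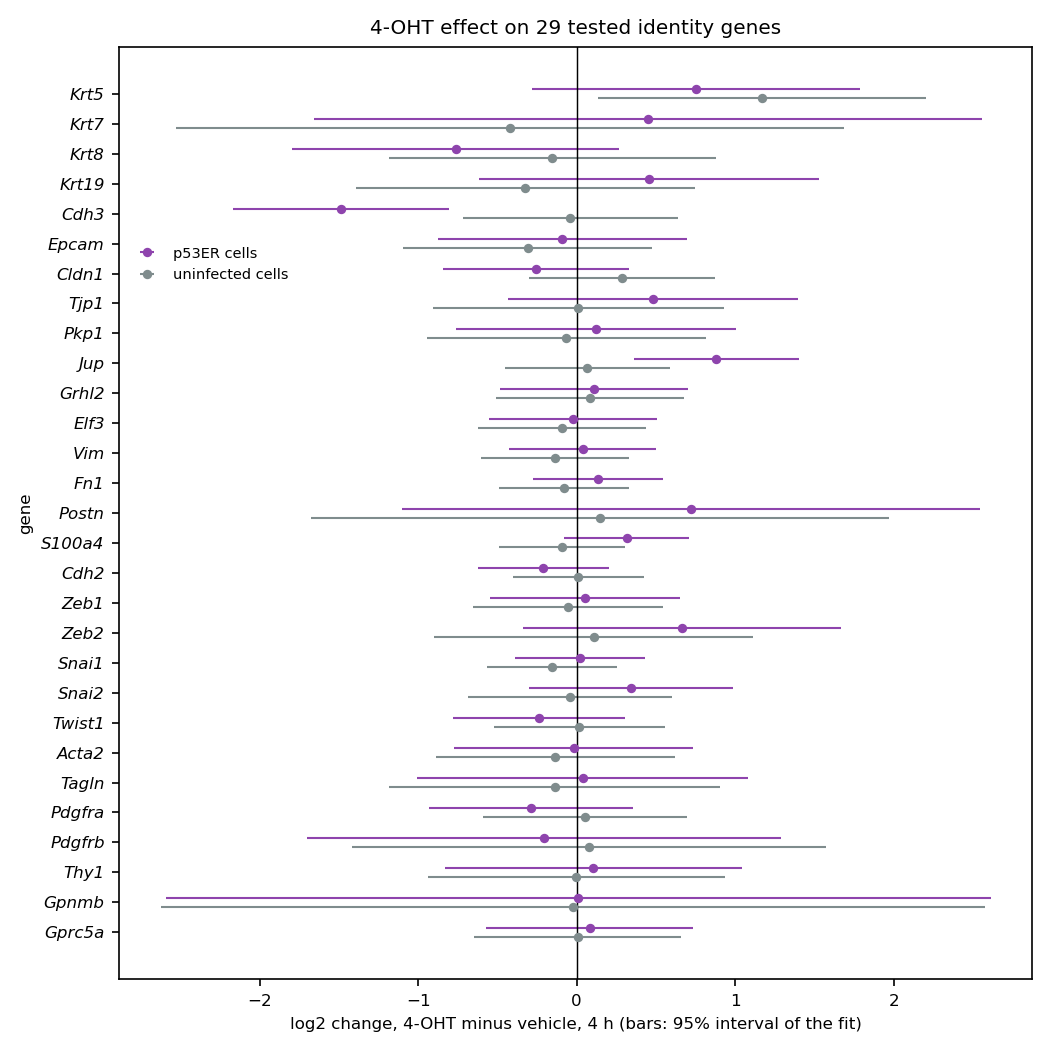
Log2 change with 4-OHT against vehicle at 4 h for the 29 tested genes (points, fitted change; bars, 95% interval) in p53ER cells (purple) and uninfected cells (grey). Most intervals cross 0; those of Cdh3 (-1.49) and Jup (+0.88) in p53ER cells and Krt5 (+1.17) in uninfected cells do not, and none of the 3 passed adjustment over all genes.

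By role, the 4 tested keratins ran from -0.76 (Krt8, SE 0.49) to +0.75 (Krt5, SE 0.49) in p53ER cells. Both ends held arrays not above the controls (Krt8 on 1 of 3 arrays with 4-OHT, Krt5 on 2 of 3 with vehicle and 1 of 3 with 4-OHT), and they ran from -1.44 to -0.28 and from +0.50 to +1.12 when each array was left out in turn. The 5 mesenchymal transcription factors ran from -0.24 (Twist1, SE 0.26) to +0.66 (Zeb2, SE 0.47), and with each array left out Twist1 ran from -0.46 to +0.00 and Zeb2 from +0.16 to +1.06, both nearest 0 without p53ER vehicle replicate 1. Acta2 and Tagln stood at -0.02 and +0.04, and the 3 stromal surface genes ran from -0.29 (Pdgfra) to +0.10 (Thy1). Of the wider lists, 0 of 19 further epithelial genes passed (3 had an unadjusted p under 0.05), 0 of 42 further mesenchymal genes (0 unadjusted) and 0 of 18 TGF-beta pathway genes (0 unadjusted), all by limma. The furthest from 0 were Evpl, a cornified envelope gene, at +1.73 (SE 0.61) and Spint2, a protease inhibitor gene, at +0.66 (SE 0.59) among epithelial genes, Tcf4 at +0.71 (SE 0.72) and Twist2 at -0.60 (SE 0.31) among mesenchymal genes, and the receptor gene Tgfbr1 at +0.89 (SE 0.52) and Inhba at +0.77 (SE 0.54) in the TGF-beta pathway.

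In uninfected cells, which were given 4-OHT without the fusion, 0 of 29 genes passed (0% of all genes; 1 with an unadjusted p under 0.05, Krt5 at +1.17, SE 0.49, against 0.758% of all genes). Krt5 was above the controls on 2 of the 3 vehicle arrays there, and stood at +0.69 without vehicle replicate 2, the array that was not. For the difference of the 4-OHT effect between cell types 0 of 29 passed as well (0% of all genes), with Cdh3 and Jup at an unadjusted p under 0.05 (1.56% of all genes). Of the 29 genes 0 had 4-OHT arrays wholly above or below the vehicle arrays in uninfected cells, against 2.36% and 1.92% of genes tested. Both comparisons used limma over all genes, and the second shares its arrays with the first.

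Culture for 4 h with vehicle also left 0 of 29 genes past the threshold (limma, mean over both cell types; 0% of all genes). Gprc5a, a retinoic acid-inducible G protein-coupled receptor gene, differed by +0.58 (SE 0.22, limma adjusted p = 0.662) and the tight junction gene Cldn1 by -0.46 (SE 0.20, limma adjusted p = 0.696), and these were the 2 with an unadjusted p under 0.05, against 6.88% of all genes. Gprc5a was 9.58, 9.46 and 10.16 at 0 h and 10.15, 10.21 and 10.86 with vehicle in p53ER cells, and 9.74, 9.78 and 10.12 at 0 h and 10.09, 10.22 and 10.80 with vehicle in uninfected cells. For each replicate number in each cell type the vehicle array was the higher one. With the replicate number as a block Gprc5a passed (+0.58, SE 0.09, limma adjusted p = 0.0291), the 1 gene of the 29 to do so, although the numbers do not pair all of these arrays.

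Between p53ER and uninfected cells without 4-OHT, over 6 arrays against 6, 0 of 29 genes passed (limma; 0.0185% of all genes). Pdgfra, which encodes a receptor for platelet-derived growth factor found on fibroblasts, was the 1 gene with an unadjusted p under 0.05, against 3.41% of all genes. In p53ER cells it was 8.20, 8.39 and 8.0 at 0 h and 8.79, 8.15 and 7.83 with vehicle, and in uninfected cells 7.72, 6.96 and 7.95 at 0 h and 7.86, 7.20 and 8.04 with vehicle. The groups overlapped, and the difference was +0.61 (SE 0.21, limma adjusted p = 0.999).

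Both contractile genes, 2 of 3 stromal surface genes and 2 of 4 tested keratins were lower in replicate 3 than in replicates 1 and 2. Of the 29 tested genes 10 passed (34.5%; limma, adjusted p under 0.05, in a fit with group and replicate number), against 21.3% of all genes. There were 8 lower in replicate 3 (27.6%, against 10.6% of all genes): Krt7, Krt19, Epcam, Acta2, Tagln, Pdgfrb, Thy1 and Gpnmb. There were 2 higher (6.90%, against 10.7%): Pkp1 and Gprc5a. An unadjusted p under 0.05 was found for 15 of the 29, against 33.2% of all genes. The median log2 difference was -0.32 over the 29 genes and 0.00 over all genes tested. That replicate 3 stood apart was known when this comparison was chosen. The fit counts the replicate 3 arrays of the 6 groups as separate, although they carry the same number. Its p-values therefore measure spread between arrays and not between replicate numbers. With quantile normalization 15 of the 29 passed, 13 of them lower, among them Vim at -0.44 (SE 0.05), Fn1 at -0.41 (SE 0.08) and S100a4 at -0.23 (SE 0.05), which did not pass with scaling alone.

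Replicate number moved with other properties of the arrays, whose part in these differences was not tested. The Gapdh 3'/5' signal ratio, a measure of RNA integrity and labelling, ran from 0.860 to 0.950 in replicate 3, 0.811 to 0.841 in replicate 2 and 0.782 to 0.822 in replicate 1, without overlap between replicate 3 and the others. The actin ratio overlapped (1.00 to 1.13, 1.05 to 1.15 and 1.10 to 1.22). The trimmed mean before scaling ran from 47.5 to 73.5 in replicate 3, 58.1 to 88.8 in replicate 2 and 82.9 to 148 in replicate 1. The labels do not say what a replicate number stands for. In bulk RNA, fewer cells of a type and less RNA per cell cannot be told apart.

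Among contractile genes, both fell. Acta2 in uninfected cells was 13.35, 13.91 and 12.64 at 0 h, 13.46, 13.64 and 12.69 with vehicle and 13.30, 13.47 and 12.62 with 4-OHT, for replicates 1, 2 and 3 in that order. In p53ER cells it was 12.96, 13.49 and 13.02 at 0 h, 13.06, 13.92 and 12.88 with vehicle and 13.20, 13.66 and 12.95 with 4-OHT. Replicate 3 was thus the lowest array of its group except in p53ER cells at 0 h. The difference was -0.65 (SE 0.10, limma adjusted p = 0.00018). The dimmer probe sets of Acta2 differed by -0.49 (SE 0.26) and -0.40 (SE 0.33) and did not pass (limma adjusted p = 0.328 and 0.591 over all probe sets). Tagln, which binds actin in smooth muscle and in fibroblasts, fell by 0.99 on the log2 scale (SE 0.13, limma adjusted p = 9.3e-05), and its replicate 3 array was the lowest in 6 of 6 groups, a pattern found in 5.35% of genes tested. In uninfected cells its replicate 3 arrays ran from 11.33 to 11.55 and the others from 12.65 to 13.16. In p53ER cells they ran from 11.91 to 12.07 and the others from 12.05 to 12.97, so the ranges overlapped there and not in uninfected cells.

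Among stromal surface genes, Pdgfrb and Thy1 fell. Pdgfrb, a receptor of fibroblasts and pericytes, was 8.51, 7.75 and 6.41 at 0 h, 8.56, 8.0 and 6.02 with vehicle and 8.51, 7.80 and 6.50 with 4-OHT in uninfected cells. In p53ER cells it was 8.05, 8.15 and 7.19 at 0 h, 8.70, 8.12 and 6.89 with vehicle and 8.08, 8.11 and 6.90 with 4-OHT. All 6 replicate 3 arrays lay below all 12 others, and the fall was 1.54 on the log2 scale, or 2.91-fold (SE 0.15 in log2, limma adjusted p = 3.5e-06). Its second probe set fell by 1.91 (SE 0.17). Thy1, a surface protein of fibroblasts and other stromal cells, fell by 0.92 (SE 0.13, limma adjusted p = 0.00013), and its 6 replicate 3 arrays (8.44 to 9.04) lay below the 12 others (9.24 to 10.15). Pdgfra differed by -0.03 (SE 0.18) on the probe set used. Its other probe sets, above the controls on 18 of 18 arrays, differed by -0.14 (SE 0.13) and +0.55 (SE 0.17). The latter had a limma adjusted p of 0.0614 over all probe sets.

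For cytoskeleton and matrix genes 0 of 5 passed (1 had an unadjusted p under 0.05, Cdh2 at -0.27). Vim rested on its probe set: the brightest one differed by -0.15 (SE 0.08, limma adjusted p = 0.218), while the other 2 fell by 0.66 (SE 0.08) and 0.71 (SE 0.10), both past the threshold over all probe sets (limma adjusted p = 4.2e-05 and 8.0e-05). Of the 5 transcription factors 0 passed over both cell types, with 3 at an unadjusted p under 0.05: Snai1 at -0.26 (SE 0.10), Snai2 at -0.38 (SE 0.16) and Twist1 at -0.34 (SE 0.13). Zeb1 differed by +0.01 (SE 0.18).

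Among epithelial genes, 2 of 4 tested keratins fell. Krt7, a keratin of simple epithelia, fell by 1.96 on the log2 scale (SE 0.32, limma adjusted p = 0.00053). It was above the controls of the same array on 2 of 6 replicate 3 arrays and on 12 of 12 others, so the size of the fall is limited by background. It was 6.39, 7.22 and 3.28 at 0 h, 5.36, 6.73 and 4.43 with vehicle and 5.83, 6.58 and 2.85 with 4-OHT in uninfected cells. In p53ER cells it was 5.16, 5.59 and 4.68 at 0 h, 5.09, 5.10 and 3.98 with vehicle and 5.61, 5.71 and 4.21 with 4-OHT. Replicate 3 was the lowest in 6 of 6 groups. Krt19 fell by 0.89 (SE 0.22, limma adjusted p = 0.0088), and in the p53ER arrays alone the difference of -0.70 did not pass (limma adjusted p = 0.278). In p53ER cells at 0 h its replicate 3 array was the highest, at 6.40 against 6.27 and 5.93. Epcam fell by 0.60 (SE 0.17, limma adjusted p = 0.0214) on the probe set that was above the controls. Its call was lost without uninfected replicate 3 at 0 h (-0.55, limma adjusted p = 0.0642), with 4-OHT (-0.48, adjusted p = 0.0884) or with vehicle (-0.49, adjusted p = 0.0846), and in the p53ER arrays alone the difference was -0.11.

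The desmosome plaque gene Pkp1 and the receptor gene Gprc5a were higher in replicate 3. Pkp1 was 6.87, 7.03 and 8.02 at 0 h, 7.60, 7.65 and 8.63 with vehicle and 7.59, 7.45 and 8.64 with 4-OHT in uninfected cells. In p53ER cells it was 7.11, 7.41 and 7.67 at 0 h, 7.10, 7.85 and 8.45 with vehicle and 7.42, 8.03 and 8.31 with 4-OHT. Replicate 3 was the highest in 6 of 6 groups, a pattern found in 5.24% of genes tested, and Pkp1 rose by 0.86 (SE 0.12, limma adjusted p = 8.6e-05). Gprc5a rose by 0.68 (SE 0.08, limma adjusted p = 2.4e-05) and was likewise the highest in 6 of 6 groups. With 4-OHT, for example, it was 9.93, 10.27 and 10.93 in uninfected and 10.03, 10.35 and 11.09 in p53ER cells. Epithelial genes thus moved in both directions, since Krt7 fell while Pkp1 rose.

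**Figure D3:**
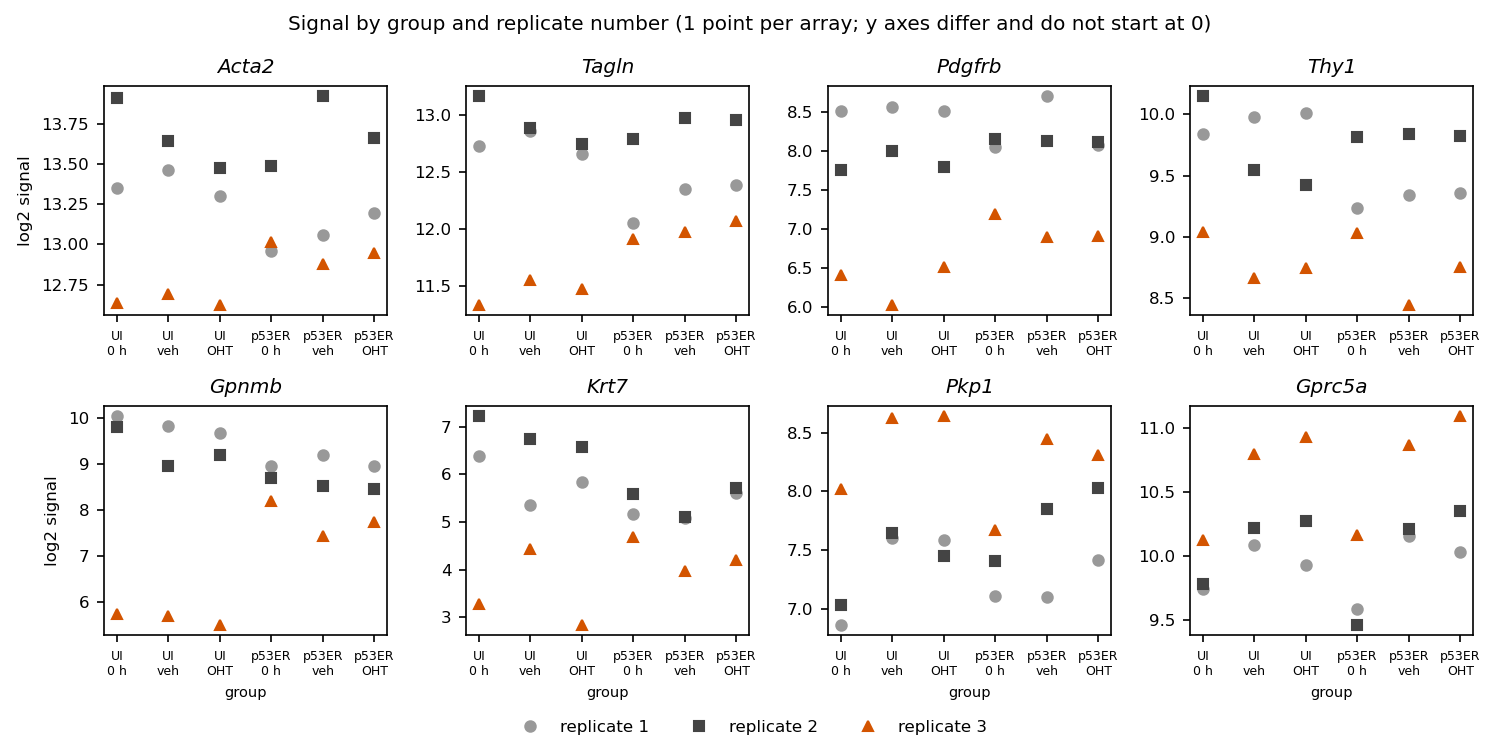
Log2 signal of 8 genes in the 6 groups (UI, uninfected; veh, vehicle; OHT, 4-OHT), with replicate 1 as grey circles, replicate 2 as dark squares and replicate 3 as orange triangles. Replicate 3 is the lowest array of its group for Tagln, Pdgfrb, Thy1, Gpnmb and Krt7 in 6 of 6 groups and the highest for Pkp1 and Gprc5a; for Acta2 it is not the lowest in p53ER cells at 0 h.

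Wider lists also held genes that differed in replicate 3 (limma, adjusted p under 0.05). Of 42 tested further mesenchymal genes 15 were lower and 9 higher, beside 10.6% and 10.7% of all genes. The 4 furthest were Cnn1, the smooth muscle calponin gene, at -1.67 (SE 0.12), the matrix genes Thbs2 at -1.43 (SE 0.11) and Fbln5 at -1.33 (SE 0.13), and the myosin light chain gene Myl9 at -1.31 (SE 0.12). In the TGF-beta pathway, which drives contractile and matrix genes in fibroblasts, 8 of 18 genes were lower and 1 higher. The ligand genes Tgfb3 and Tgfb2 stood at -0.99 (SE 0.19) and -0.73 (SE 0.13), the inhibitor gene Smad6 at -0.64 (SE 0.17), and the ligand gene Tgfb1 at +1.09 (SE 0.13). Of 19 further epithelial genes 6 were lower and 2 higher, with the junction gene F11r at -0.83, the transcription factor gene Klf4 at -0.79, the tetraspanin gene Cd9 at +0.69 and Cd24a at -0.62.

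Some markers of other cell types also differed in replicate 3, as did 21.3% of all genes tested, and their part was not tested. Acta1, the skeletal muscle actin gene, was lower by 1.62 on the log2 scale (-1.62, SE 0.27), 1 of 3 tested muscle markers. Sox2, a transcription factor gene of stem and neural progenitor cells, was higher by 2.50 (SE 0.18), 1 of 6 neural markers. Of 6 blood markers, Cd14 (+0.72) and Cd74 (+0.62) were higher and Csf1r (-0.44) lower, and of 3 endothelial markers Kdr was lower (-0.48). Of 3 tested melanocyte markers 0 passed (limma; 0 at an unadjusted p under 0.05), with Mitf at +0.37 (SE 0.23).

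Replicates 1 and 2 differed less. Of the 29 genes 0 passed (limma; 0.00924% of all genes), and 7 had an unadjusted p under 0.05, against 7.87% of all genes. Vim at +0.45 (SE 0.09), Acta2 at +0.46 (SE 0.11), Tagln at +0.41 (SE 0.15) and S100a4 at +0.36 (SE 0.09) were higher in replicate 2, with limma adjusted p of 0.146, 0.211, 0.529 and 0.211.

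The replicate 3 difference was larger in uninfected than in p53ER cells for Gpnmb and Tagln. The 3 replicate 3 arrays of a cell type carry the same number, and the labels do not say whether they share a culture. The p-values below therefore do not measure spread between replicate numbers. A trait of the cell type cannot be told apart from one of those 3 arrays. In a fit with cell type by replicate terms, added after the data were seen, 2 of 29 genes passed for the difference of the shift (limma, adjusted p under 0.05; 0.887% of all genes). Both were lower in uninfected cells, as in 0.471% of all genes, and 0 were higher, against 0.416%. Gpnmb encodes a transmembrane glycoprotein of pigment cells, macrophages and bone cells. In uninfected cells its signal was 10.03, 9.81 and 5.74 at 0 h, 9.81, 8.95 and 5.71 with vehicle and 9.67, 9.20 and 5.52 with 4-OHT. In p53ER cells it was 8.95, 8.70 and 8.19 at 0 h, 9.19, 8.51 and 7.44 with vehicle and 8.96, 8.47 and 7.75 with 4-OHT. All 3 uninfected replicate 3 arrays thus lay far below the other 15, which ran from 7.44 to 10.03.

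The Gpnmb shift was -3.93 in uninfected cells, a 15.2-fold fall, and -1.0 in p53ER cells, a 2.01-fold fall (SE 0.15 for each in log2), and the difference was -2.92 (SE 0.22, limma adjusted p = 2.8e-05). Its second probe set was above the controls on 1 of 18 arrays and gives no check. In uninfected cells replicates 1 and 2 alone averaged above those of p53ER cells, so group means over 3 arrays (8.53 ± 2.42 at 0 h in uninfected and 8.61 ± 0.39 in p53ER cells, SD, n = 3) do not show the pattern. Tagln shifted by -1.38 in uninfected cells and -0.60 in p53ER cells (SE 0.09 for each), and the difference was -0.78 (SE 0.13, limma adjusted p = 0.0098). That call was lost without p53ER 4-OHT replicate 3 (limma adjusted p = 0.0566) or uninfected 0 h replicate 3 (adjusted p = 0.0565). Of the wider lists Evpl (-2.38, SE 0.47), Mmp2 (-0.95, SE 0.19) and Acta1 (-1.64, SE 0.21) passed for the same difference.

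At an unadjusted p under 0.05 there were 11 of the 29, against 10.9% of all genes. The shift was lower in uninfected cells for 7 of them (Gpnmb, Tagln, Epcam, Fn1, Krt7, Acta2 and Pdgfrb) and higher for 4 (Pdgfra, Snai2, Pkp1 and Twist1). Epcam shifted by -1.09 and -0.11 in uninfected and p53ER cells (difference -0.98, SE 0.23, limma adjusted p = 0.0659). Krt7 shifted by -2.83 and -1.09 in uninfected and p53ER cells (difference -1.75, SE 0.46, limma adjusted p = 0.110), with 1 of 3 replicate 3 arrays above the controls in each, so that background limits both shifts and their difference. Acta2 shifted by -0.87 and -0.44 (difference -0.44, SE 0.14, adjusted p = 0.216) and Pdgfrb by -1.88 and -1.21 (difference -0.67, SE 0.22, adjusted p = 0.233). Pdgfra, on its brightest probe set, had opposite signs, +0.45 (SE 0.15) and -0.52 (SE 0.15), and a difference of +0.97 (SE 0.21, limma adjusted p = 0.0519). Its fall in p53ER cells passed (limma, adjusted p under 0.05), and its rise in uninfected cells did not. In p53ER cells alone Snai2 (-0.73, limma adjusted p = 0.0156) and Twist1 (-0.59, adjusted p = 0.0199) were lower in replicate 3, against -0.03 and -0.09 in uninfected cells, but their differences between the cell types did not pass (limma adjusted p = 0.317 and 0.421). Within each cell type 11 of the 29 genes passed, against 15.1% of all genes in p53ER and 13.6% in uninfected cells (limma), with 9 lower in each, against 7.69% and 7.03%, and 2 higher in each, against 7.42% and 6.61%.

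**Figure D4:**
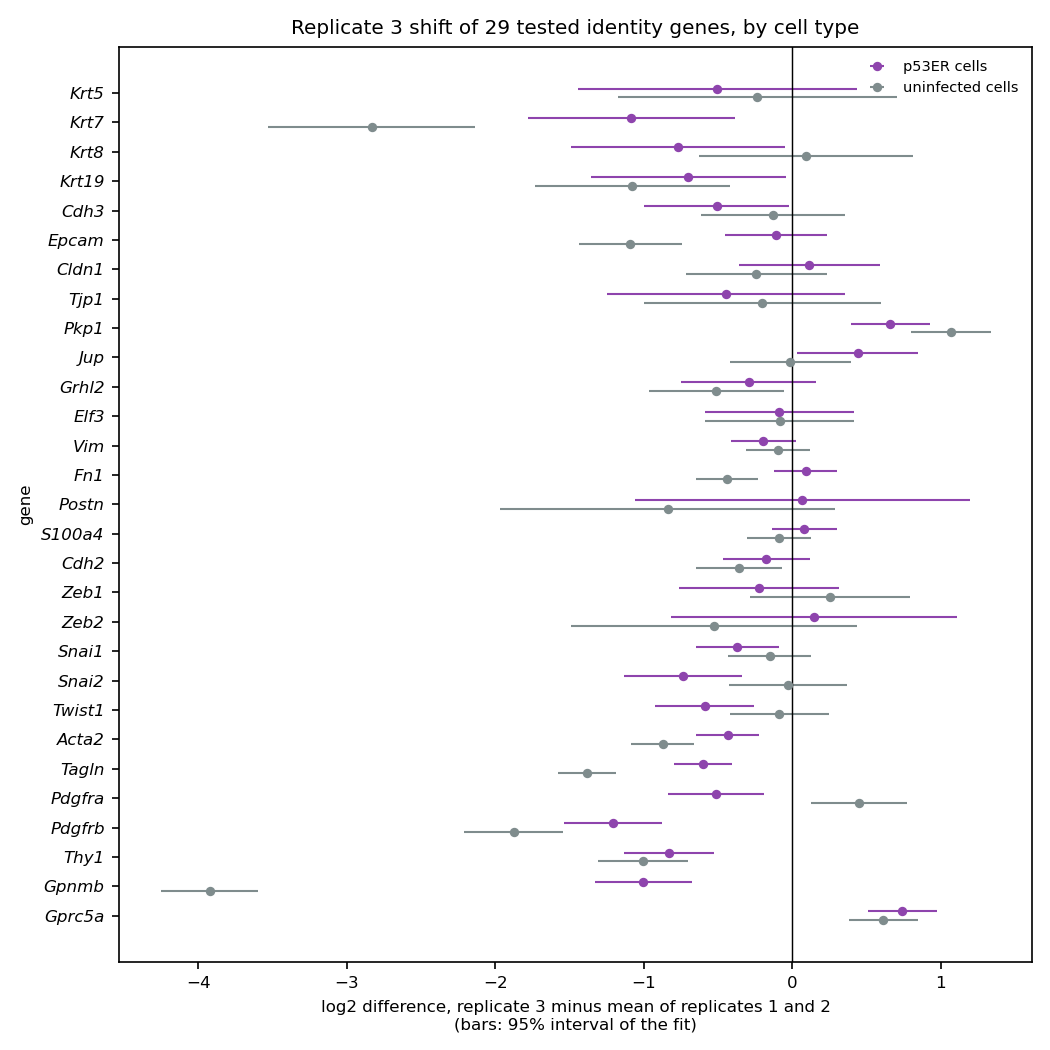
Log2 difference of replicate 3 from the mean of replicates 1 and 2 for the 29 tested genes (points, fitted difference; bars, 95% interval) in p53ER cells (purple) and uninfected cells (grey). Gpnmb lies at -3.93 in uninfected and -1.0 in p53ER cells and Tagln at -1.38 and -0.60; these were the 2 genes whose difference between the cell types passed.

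Of the 29 tested genes, 4 were low on the 3 arrays that lay apart, a share close to that of all genes tested. Those arrays had been picked out on all genes, so these values are a description. In the order p53ER vehicle replicate 1, uninfected 0 h replicate 2 and p53ER 0 h replicate 3, Tjp1 was 6.30, 6.28 and 6.90 against 7.14 to 8.15 on the other 15 arrays. Zeb1, a repressor of epithelial genes, was 8.30, 7.87 and 7.95 against 8.52 to 9.17. For both genes all 3 arrays lay below all others. For Postn (5.36, 5.86 and 7.61 against 6.99 to 9.21) and Zeb2, the second ZEB gene (4.58, 4.80 and 5.91 against 5.20 to 6.79), 2 of the 3 did. Having 2 or 3 of these arrays below the other 15 was found in 12.9% of genes tested. Vim, Fn1, Acta2 and Tagln had 0 of the 3 arrays below the others.

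**Figure D5:**
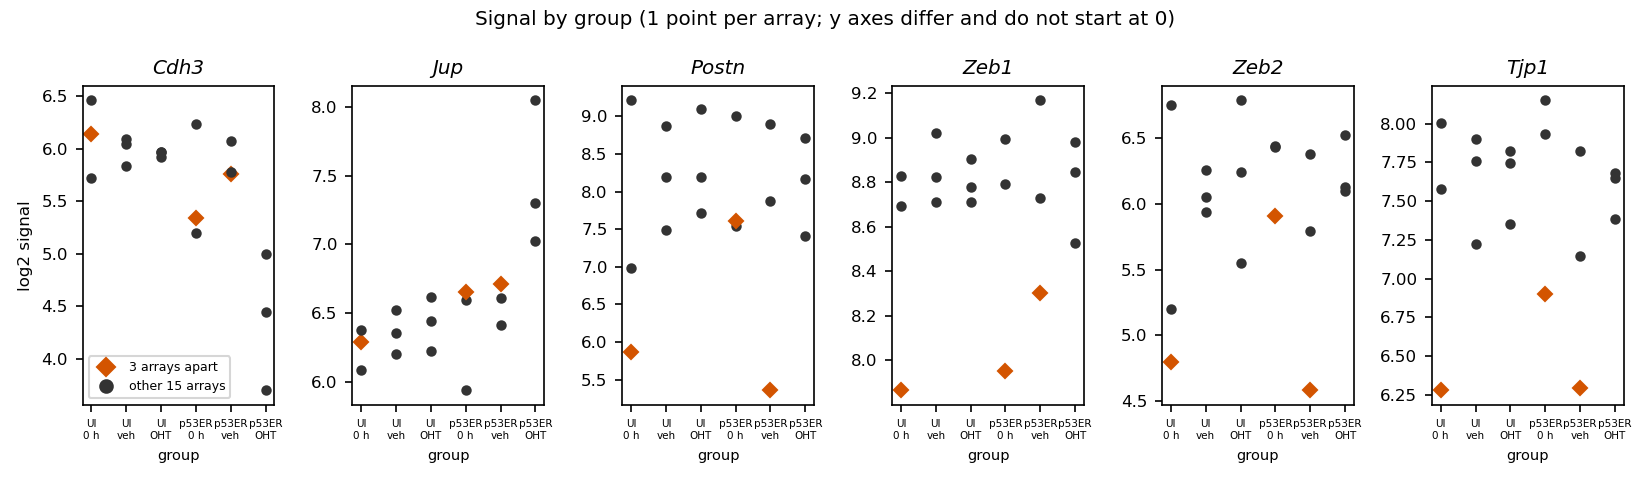
Log2 signal of 6 genes by group (1 point per array), with the 3 arrays that lay apart as orange diamonds. Cdh3 is lowest (3.70 to 5.0) and Jup highest (7.03 to 8.05) in p53ER cells with 4-OHT, whereas Tjp1 and Zeb1 are lowest on the 3 arrays that lay apart.

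Without those 3 arrays the 4-OHT difference in p53ER cells moved for the genes low on them. Postn went from +0.72 to -0.29 (SE 0.71), Zeb2 from +0.66 to +0.16 (SE 0.41) and Tjp1 from +0.48 to +0.09 (SE 0.25), none past the threshold with or without the arrays. Cdh3 stood at -1.54 (SE 0.38) and Jup at +0.95 (SE 0.28) without them, both still short of it (limma adjusted p = 0.675 and 0.936).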

How the data were processed

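The authors deposited linear signal intensities computed with MAS5, per the submitters' processing notes (its version is not given in the sources used here), for 45101 probe sets on 18 arrays. Scaling brought the 2% trimmed mean of every array to 82.7, and values were used as log2(signal + 4.13), an offset of 5% of that mean. Differences are on this scale, which understates those of dim genes. Of the probe sets, 34958 were listed with 1 gene, 932 with several and 9211 with none, and 34754 were matched by Entrez ID to GRCm38.p6 RefSeq genes. Each gene was read by its brightest probe set, and the upper 60% of 18033 genes were tested. Some genes are not analysed here.

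The 6 group means over 18 arrays were fitted with limma 3.58.1 in R 4.3.3 (trended, robust prior), with group and replicate terms for replicate differences. P-values were two-sided, Benjamini-Hochberg adjusted over all genes tested, with a threshold of 0.05, and the code was tested on simulated data. The number of arrays limits the precision. All 40 listed genes are described; from each wider list up to 4 genes past the threshold with the largest change are named, or up to 2 where none passed. The listed genes, wider lists and comparisons were chosen with earlier results of these data known. The replicate 3 by cell type fit, the control level and leaving out all replicate 3 arrays were added after the data were seen.

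Residuals of same-numbered arrays correlated between 4-OHT and vehicle (r 0.21 to 0.45 in p53ER and 0.31 to 0.63 in uninfected cells), although the labels give no reason. Residuals were taken from group means, so the shift of replicate 3 enters those of every number. These r therefore do not show by themselves that the numbers pair the arrays. For the time and cell type comparisons the lowest r was -0.21. Alternatives covered normalization, offset, filter, probe sets, prior, array weights, arrays in the fit, a replicate block and leaving out arrays.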

Additional observations from a re-analysis of the deposited data

Results flagged for a closer look

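The shift of replicate 3 differed between uninfected and p53ER cells for 2 of the listed genes, by a test of the difference itself (limma, cell type by replicate terms). For Gpnmb the difference was -2.92 and for Tagln -0.78, both lower in uninfected cells. The arrays of the 2 cell types that carry the same number are not said to share a culture or a day, and no cause was tested. This test rests on spread between arrays and not between replicate numbers. Groups of 3 arrays are too small for a search for single outlying arrays.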

How the results depend on the processing

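With all alternatives tried (13 besides leaving out each of 18 arrays), 0 of 29 genes passed for 4-OHT in p53ER cells, in uninfected cells, for the difference between them and for p53ER against uninfected cells. For vehicle at 4 h against 0 h the count of 0 became 1 (Gprc5a, +0.58, limma adjusted p = 0.0291) with the replicate number as a block, and 1 when the 3 arrays that lay apart were also left out. For the time and cell type comparisons the residuals of 4 of 12 same-numbered pairs correlated at under 0.1, all 4 among the 6 pairs that held 1 of the 3 arrays, while the other 6 had r of 0.19 to 0.41. The block changed no other call, and Cdh3 and Jup had limma adjusted p of 0.123 and 0.567 with it. For replicate 3 the count of 10 ran from 8 (upper 40% of genes) to 15 (quantile normalization), and from 9 to 11 when each array was left out. For replicate 2 against replicate 1 the count of 0 became 1 (Vim) with array weights and 1 in the uninfected arrays alone. For the difference of the replicate 3 shift the count of 2 became 4 with quantile normalization, 4 with the stricter filter, 4 without the 3 arrays, 3 with an offset of 20% (Pdgfra added), 10 with array weights and 1 without trend and robustness (Gpnmb), and ran from 1 to 3 when each array was left out. The cause of these changes was not tested, except that the stricter filter left 20 of the 40 genes to test. Of the 10 genes that differed in replicate 3, 8 kept direction and call under every alternative that held them, the exceptions being Krt19 and Epcam in the p53ER arrays alone and Epcam without an uninfected replicate 3 array. Gpnmb ran from -3.13 to -2.67 for the difference of the shift. The number of genes above the filter was 29, and 28 to 29 when each array was left out. The 11 dimmest genes were below the filter and were not tested, and the changes of Krt5, Krt7, Krt8, Cdh3, Cldn1 and Zeb2, tested with some arrays at or below the controls, are limited in size by background.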
